A study of Mus musculus with 3 samples.

Results

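The comparison set 1 library of osteoclast-forming cells given thyroid stimulating hormone (TSH), the column named T1, against 1 library without it, across 6746 protein-coding genes. These genes were chosen only by level: each had a mean of at least 5 FPKM (fragments in a gene divided by its length and by the depth of the library) over the 3 libraries of the series, out of 22046 protein-coding genes and 54532 rows of the deposited table. All 3 libraries came from RAW264.7 cells, a mouse macrophage line labelled wild type, that had received the cytokine RANKL for 3 days. The library without TSH, of RANKL alone, is labelled 0 h. The others received TSH at 10 mU/mL for 2 h or 24 h, and the column names T1 and T2 do not say which is which, so nothing is read from the hours of T1. Each group is 1 library of 1 cell line, and the hours after RANKL and the presence of TSH cannot be told apart.

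RANKL drives macrophages to fuse into osteoclasts, which seal off a patch of bone, pump acid into it and digest its matrix with secreted proteases. TSH, a pituitary hormone, acts through a G protein coupled receptor that raises cyclic AMP, and has been studied as a brake on osteoclasts. The hormone's receptor gene, Tshr, is not among the 6746: it had 0 reads without TSH, 2 in T1 and 0 in T2. A count of 0 allows up to 3 reads, so this depth gives no level for it.

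The difference between libraries was small for nearly every gene. The change was taken as log2(FPKM + 1) in T1 minus the same with RANKL alone, a scale that understates changes of genes near the filter. Its median was -0.002 and its SD across genes 0.127, and 81.5% of genes lay within 1.1-fold. Reads per gene were recovered from the values, and their ratio, scaled to depth, was given an exact 95% interval that covers counting error only. A gene is called beyond counting error where that interval leaves out 1, which compares these libraries and not the conditions. By that rule 12.5% of the genes (842) were higher in T1 and 15% (1015) were lower, and 4889 lay within counting error. Every count for a gene list below is to be read beside those shares. The 842 had a median size of 0.139 in log2 and the 1015 one of 0.150. The balance depends on the scaling: with both libraries set to the same total FPKM, 541 were higher and 1403 lower, because the summed FPKM of T1 was 1.02 times that of RANKL alone.

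**Figure D1:**
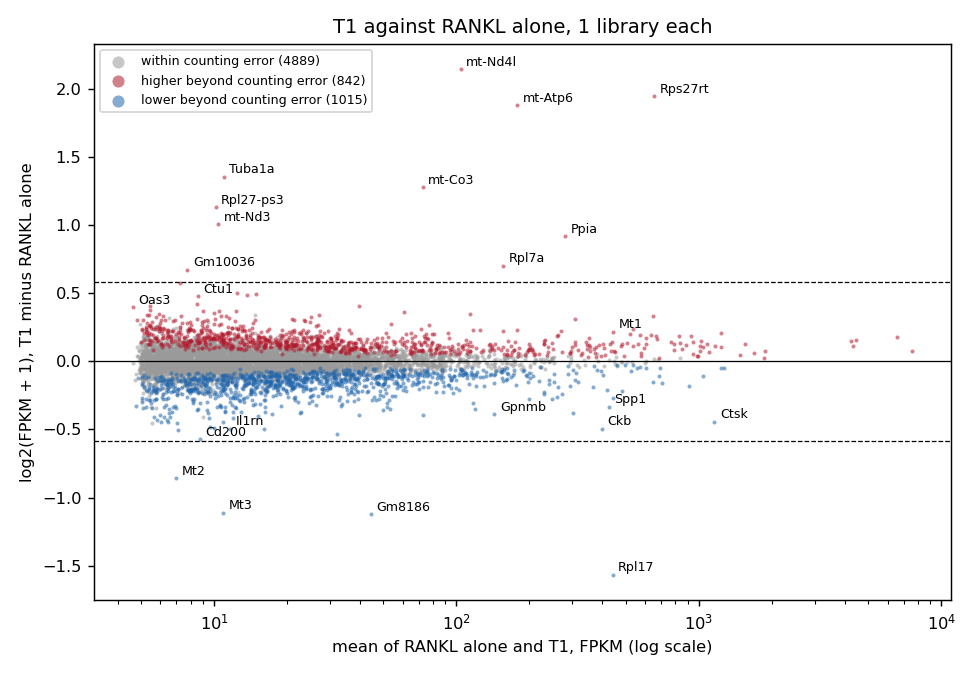
Change in log2(FPKM + 1), T1 minus RANKL alone, against the mean FPKM of the 2 libraries (log axis), 1 point per gene for 6746 genes. Red and blue points lie beyond counting error (842 higher, 1015 lower), grey points within it (4889), and the dashed lines mark 1.5-fold, which 10 genes passed upwards and 4 downwards.

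How often a gene lay beyond counting error moved with its depth and its length, which is given here because it touches every count that follows. Among the 1350 genes of lowest level, 8.15% were higher and 8.96% lower. Among the 1349 of highest level the shares were 22.7% and 24.0%. Both groups had medians within 0.01 of 0. Along length the balance itself differed: among the 1350 shortest genes 14.8% were higher and 11.8% lower, and among the 1349 longest 9.86% were higher and 19.7% lower, with medians of 0.01 and -0.01. Its part in the gene groups below was read once, by removing the trend with length and level from every change. No list with a median of at least 0.05 in size changed sign by that. Medians nearer to 0 were not judged, and that of the osteoclast fusion genes went from -0.025 to -0.007. Autosomes and X had medians between -0.014 and 0.007, and the mitochondrial genome one of 0.14.

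**Figure D2:**
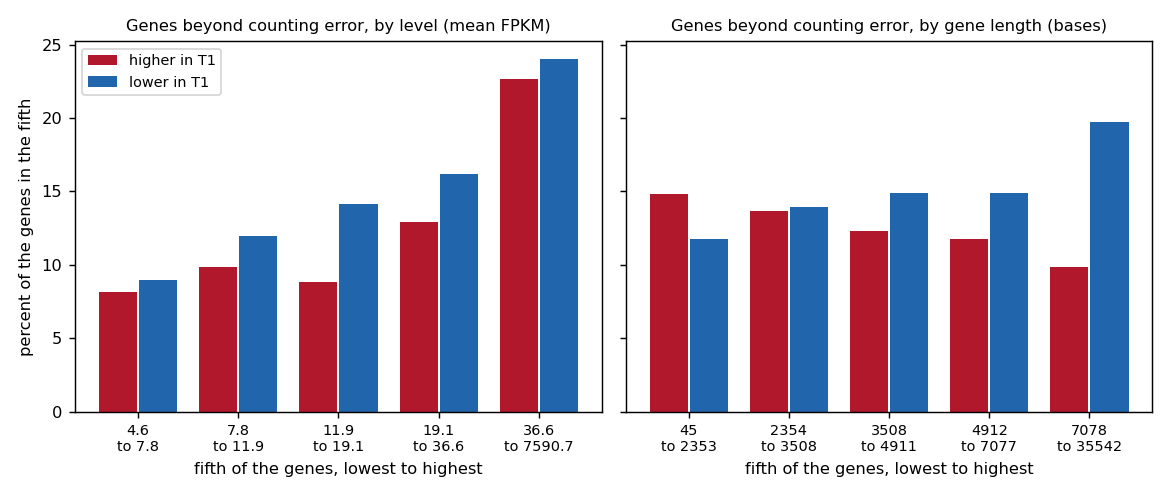
Percent of genes higher (red) and lower (blue) in T1 beyond counting error, in 5 groups of equal size by mean FPKM (left) and by gene length in bases (right). From the lowest to the highest level the red bars go from 8.15% to 22.7% and the blue ones from 8.96% to 24.0%, whereas along length the red bars shrink from 14.8% to 9.86% and the blue ones grow from 11.8% to 19.7%.

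Past 1.5-fold, 10 genes were higher (0.148% of the genes) and 4 lower (0.0593%). All 10 higher genes have a near-identical copy elsewhere in the genome, so how reads were divided between copies can set their values. They are 4 mitochondrial messages, 3 ribosomal protein genes or their relatives (Rps27rt, Rpl27-ps3 and Rpl7a), the predicted gene Gm10036, the tubulin gene Tuba1a and the cyclophilin gene Ppia. For mt-Nd4l, a respiratory complex I subunit encoded in the mitochondrion, the level was 37.8 FPKM without TSH, 170.3 in T1 and 71.5 in T2. Ppia, often used as a reference gene, stood at 194, 366 and 378 FPKM in that order. Summed over copies, the log2 ratio for Ppia came to 0.27, that for Tuba1a to 0.24 and that for mt-Nd4l to 1.64. The sums for mt-Atp6 and mt-Co3 were 1.45 and 1.06, and that for mt-Nd3 was 0.13. Those for Rps27rt and Rpl7a were 0.41 and 0.33, and those for Rpl27-ps3 and Gm10036 were 0.03 and 0.07. Of these genes mt-Nd4l, mt-Atp6, mt-Co3, Tuba1a and Rpl7a also share exon bases with another gene. The lower genes were Rpl17 and Gm8186, whose sums over copies pointed the other way (0.16 and 0.14), and the metallothionein genes Mt2 and Mt3, which have no copy by this rule.

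Metallothioneins are small cysteine-rich proteins that bind zinc and copper, and their 3 expressed genes moved in opposite directions in T1. They lie close together on chromosome 8 of GRCm38. Mt3, at 94152607 to 94154146, was at 15.3 FPKM without TSH, 6.55 in T1 and 7.01 in T2. Its reads fell from 263 to 117, a T1 to RANKL-alone ratio of 0.428 (95% counting interval 0.341 to 0.534). Mt2, at 94172664 to 94173568, was at 9.28, 4.67 and 5.73 FPKM, from 88 reads without TSH and 46 in T1, a ratio of 0.503 (0.344 to 0.726). An exon of Mt2 overlaps another annotated gene, so its few reads are less certain. Mt1, at 94179082 to 94180327, was the abundant member, at 409, 475 and 526 FPKM, a ratio of 1.16 (1.128 to 1.196). Both TSH libraries were thus below RANKL alone for Mt3 and Mt2 and above it for Mt1, and they share that library of RANKL alone. Among all 14 metallothionein and zinc transporter genes past the filter, 1 was higher beyond counting error and 4 were lower, the other lower ones being the zinc exporter gene Slc30a1 at -0.14 and the importer gene Slc39a1 at -0.11.

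The promoters of these neighbours are shown because the genes moved apart, with matches to the core of the metal response element, TGCNCNC, in capitals (N is any base, both strands searched). Each is the 200 bases before the RefSeq start on GRCm38.p6, plus strand, at chr8:94178889-94179088 for Mt1, chr8:94172418-94172617 for Mt2 and chr8:94152407-94152606 for Mt3.
Mt1: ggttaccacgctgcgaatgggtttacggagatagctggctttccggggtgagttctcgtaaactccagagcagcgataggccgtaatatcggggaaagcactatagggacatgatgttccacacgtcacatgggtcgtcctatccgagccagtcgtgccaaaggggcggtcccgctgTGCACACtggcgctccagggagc
Mt2: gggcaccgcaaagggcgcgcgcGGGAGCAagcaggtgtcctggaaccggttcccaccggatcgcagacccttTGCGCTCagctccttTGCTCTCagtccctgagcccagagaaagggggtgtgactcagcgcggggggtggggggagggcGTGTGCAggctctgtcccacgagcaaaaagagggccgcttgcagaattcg
Mt3: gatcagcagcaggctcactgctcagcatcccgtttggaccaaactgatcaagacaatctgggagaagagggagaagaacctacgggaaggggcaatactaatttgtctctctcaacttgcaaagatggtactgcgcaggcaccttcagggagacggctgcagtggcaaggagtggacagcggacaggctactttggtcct
The window of Mt1 holds 1 match, 23 bases before the start, that of Mt2 holds 4 between 50 and 178 bases before it, and that of Mt3 holds 0. The windows end at the annotated start, so matches after it are not counted and these numbers do not rank the genes. Over 300 bases, from 250 before the start to 50 after it, Mt1, Mt2 and Mt3 each had a match. So loose a motif is common: 51.0% of 32851 mouse promoters of 300 bases hold it. Of the 6746 genes, 5416 had a promoter in that table.

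The other genes named here were ranked by the bound of the counting interval nearest to 1, among genes without a copy. On the lower side several encode proteins that osteoclasts or macrophages show at their surface or secrete. Ctsk, encoding the matrix protease cathepsin K, was at 1337 FPKM without TSH, 983 in T1 and 980 in T2. Gpnmb, encoding osteoactivin, a membrane glycoprotein of osteoclasts, was at 163, 124 and 122.6 FPKM, a ratio of 0.762 (0.745 to 0.779). Spp1, encoding the bone matrix protein osteopontin, was at 475, 377 and 452 FPKM, a ratio of 0.793 (0.772 to 0.814) in T1. For Ctsk and Gpnmb the TSH libraries lay close together, while for Spp1 the T2 library lay nearer to RANKL alone. Cd200, encoding a ligand that restrains myeloid cells through its receptor, was at 10.7, 6.84 and 8.32 FPKM, a ratio of 0.642 (0.562 to 0.732).

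Among the ranked lower genes were 2 of cytokine signalling and 2 of TGF-beta reception. Il1rn, encoding the natural antagonist of the interleukin-1 receptor, stood at 13.8 FPKM without TSH, 9.52 in T1 and 10.3 in T2, a ratio of 0.689 (0.631 to 0.752). Lif, a cytokine gene of the interleukin-6 family, was at 7.48, 5.29 and 6.61 FPKM. The TGF-beta receptor gene Tgfbr1 was at 59.6, 46.5 and 42.8 FPKM, a ratio of 0.780 (0.751 to 0.809), and Cd109, encoding a membrane-anchored co-receptor that dampens TGF-beta signals, at 83.0, 63.0 and 64.2 FPKM. Of the 18 members of the TGF-beta, BMP and SMAD list, 5 were lower beyond counting error (27.8%, against 15% of all genes), Tgfbr2 among them at -0.17. Only 1 was higher, Smad5 at 0.14. The list's median was -0.04. Among 13 inflammatory cytokines and targets, 6 were lower beyond counting error and 0 higher, including Ier3 at -0.29 and the ubiquitin-editing gene Tnfaip3 at -0.24. The remaining lower genes of the ranking were Trp53inp2 (-0.48), Slc41a2 (-0.45), Lctl (-0.45) and Wdr7 (-0.38). Trp53inp2 encodes an autophagy regulator, Slc41a2 a magnesium transporter and Wdr7 a partner of the vacuolar proton pump.

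The lower side also held 3 genes of creatine use, picked after their values were seen and not counted as a list. Gatm, of creatine synthesis, stood at 0.07. Creatine kinases buffer ATP by moving phosphate to and from creatine. Ckb, the cytosolic kinase gene (chromosome 12, 111669361 to 111672338), was at 467 FPKM without TSH, 331 in T1 and 334 in T2, a ratio of 0.708 (0.694 to 0.723). It has 1 near-identical copy, and the sum over both also came to -0.50 in log2. Ckmt1, the mitochondrial kinase gene, was at 8.50, 5.69 and 5.10 FPKM, a ratio of 0.669 (0.565 to 0.792), and shares exon bases with another gene. Slc6a8, the creatine transporter gene, was at 58.0, 45.7 and 47.7 FPKM, a ratio of 0.787 (0.755 to 0.821). For all 3, both TSH libraries lay below RANKL alone.

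The higher genes of the ranking were less abundant and more mixed. Ctu1, encoding an enzyme that adds sulfur to transfer RNA, was at 7.01 FPKM without TSH, 10.1 in T1 and 8.53 in T2, a ratio of 1.45 (1.24 to 1.69). Oas3, encoding an interferon-induced antiviral sensor of double-stranded RNA, was at 3.86, 5.40 and 6.28 FPKM. It passed the filter through the TSH libraries, as did Serinc2 and Zfyve16, at 4.52 and 4.84 FPKM without TSH. Pim3, a survival kinase gene, was at 22.3, 28.2 and 26.9 FPKM, a ratio of 1.26 (1.16 to 1.38). Suv39h1, encoding a histone methyltransferase of silent chromatin, was at 7.52, 9.54 and 9.36 FPKM. In these genes both TSH libraries lay above RANKL alone, but for Serinc2 and Zfyve16 the T2 ratio was within counting error. Zfp771, a zinc finger gene, was at 7.75 FPKM without TSH and 10.3 in T1, but at 7.98 in T2. Mitochondrial proteins appear with Sdhaf4 (0.50), an assembly factor of succinate dehydrogenase, and Top1mt (0.37), the organelle's topoisomerase. Cell division appears with Clspn (0.25), Pimreg (0.32) and Troap (0.30), and the rest were Sppl2b (0.33), Serinc2 (0.41), the death-receptor adaptor gene Tradd (0.36) and Zfyve16 (0.27). Sdhaf4, Suv39h1, Top1mt, Troap, Spp1, Lctl and Wdr7 share exon bases with another gene, whose reads may be mixed with theirs.

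**Figure D3:**
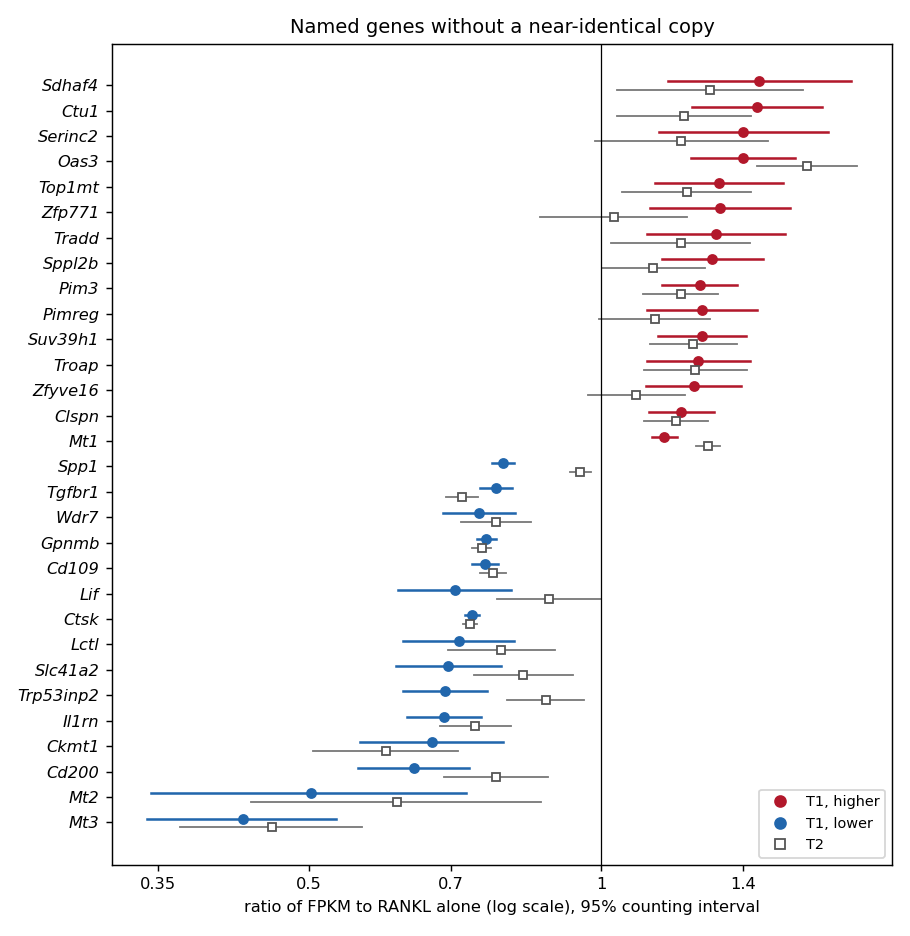
Ratio of FPKM to RANKL alone (log axis) with 95% counting intervals for the 30 genes of the ranking that have no near-identical copy, T1 as filled circles and T2 as open squares. In T1, Mt3 and Mt2 lie farthest left (0.428 and 0.503) and Sdhaf4 and Ctu1 farthest right (1.45 each). Oas3 in T2 lies farther right, at 1.63, and the squares share the RANKL-alone library with the circles.

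Genes that carry out bone resorption were lower almost throughout. Of 17 listed, 15 passed the filter and 14 of these were lower beyond counting error (93.3%, against 15% of all genes), with a median of -0.24. Snx10, encoding a sorting nexin that osteoclasts need for resorption, was at 24.7 FPKM without TSH, 19.9 in T1 and 20.9 in T2, a ratio of 0.807 (0.769 to 0.847). Slc4a2, the anion exchanger gene that balances acid secretion, was at 54.4, 45.3 and 46.9 FPKM, a ratio of 0.833 (0.805 to 0.862). Acp5, encoding tartrate-resistant acid phosphatase, was at 972, 857 and 822 FPKM. The exception was Car2, encoding the carbonic anhydrase that supplies protons, at 296, 322 and 304 FPKM, a ratio of 1.09 (1.06 to 1.12). In a bulk library, fewer osteoclasts and less RNA per osteoclast cannot be told apart.

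Cell attachment genes were lower with them. Integrin pairs anchor the osteoclast to bone through podosomes, dots of actin that fuse into the sealing zone. Of 8 integrin genes past the filter 5 were lower beyond counting error and 0 higher, with a median of -0.15. Over the 6 with a mean of at least 20 FPKM the median was -0.046. Itgb3, encoding the beta chain of the osteoclast vitronectin receptor, was at 13.7 FPKM without TSH, 11.3 in T1 and 11.03 in T2, a ratio of 0.829 (0.765 to 0.899). Its partner Itgav was at 109.9, 94.99 and 95.7 FPKM. Itgb7 stood at -0.27 and Itgb5 at -0.22, whereas Itga5, of the fibronectin receptor, was at 59.4, 60.6 and 57.7 FPKM, within counting error in T1. Of 25 podosome and sealing zone genes 16 were lower beyond counting error (64.0%) and 0 higher, with the kinase gene Src at -0.20, the actin-severing gelsolin gene Gsn at -0.16 and the kinase gene Ptk2b at -0.13. The 48 genes of actin nucleation and turnover leaned the same way, 20 lower and 2 higher beyond counting error, around a median of -0.05, and Actg1, a cytoplasmic actin gene with 7 near-identical copies, at -0.22. These lists share members, Itgb3, Itgav and Src among them, and Itgav is also counted among the resorption proteins, so they are not separate counts.

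Lists that describe how osteoclasts form had medians nearer to 0 than the list of resorption proteins. Of 12 fusion genes 3 were lower (25%, against 15% of all genes) and 1 higher (8.33%, against 12.5%) beyond counting error. Their median was -0.03. Atp6v0d2, which is also a pump subunit and is counted among the resorption proteins too, was lowest at -0.24. Of 22 osteoclast transcription factor genes 5 were lower and 5 higher (22.7% each), with a median of -0.02. Jun, part of the AP-1 factor that acts below RANK, was at 9.66 FPKM without TSH, 7.33 in T1 and 6.69 in T2, a ratio of 0.759 (0.663 to 0.868). Prdm1, a repressor gene that permits osteoclast differentiation, was at 19.6, 16.9 and 15.3 FPKM. Mitf, encoding a factor that drives osteoclast genes, was at 15.8, 17.7 and 14.8 FPKM, so that it was higher in T1 and lower in T2 than with RANKL alone. Among 16 genes of the RANK receptor and its costimulatory partners 6 were lower and 0 higher, led by Oscar at -0.38, the adaptor gene Traf6 at -0.24 and the kinase gene Syk at -0.14. The difference between these lists and the resorption list was not tested.

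The vacuolar proton pump (V-ATPase) acidifies both lysosomes and the resorbed pit. Of its 18 genes past the filter 13 were lower beyond counting error (72.2%) and 0 higher, with a median of -0.17. The cytosolic catalytic sector held the lowest values: Atp6v1d was at 49.6 FPKM without TSH, 40.5 in T1 and 43.1 in T2, a ratio of 0.816 (0.777 to 0.856), and Atp6v1a, the catalytic subunit gene, at 284, 237 and 240.1 FPKM. Atp6v0e, of the membrane sector, was at 111, 114 and 113 FPKM, within counting error in T1. The promoter of Atp6v1a is shown because it holds the palindrome TCACGTGA (capitals), the core of the element bound by factors that switch on lysosomal genes. It is the 200 bases before the start on the minus strand of chr16:44139260-44139459, with the match 132 bases before the start.
Atp6v1a: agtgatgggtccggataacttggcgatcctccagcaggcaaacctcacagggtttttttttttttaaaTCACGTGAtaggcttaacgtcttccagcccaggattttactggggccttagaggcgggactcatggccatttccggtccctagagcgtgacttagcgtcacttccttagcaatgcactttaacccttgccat
The same letters were found in 3 of 12 pump genes with a promoter in the table (25%), Atp6v0d1, Atp6v0e and Atp6v1a, against 0.974% of all promoters and 2.58% of those of the expressed genes. They did not sort the pump genes by change, since Atp6v0d1 stood at -0.16 and Atp6v0e at 0.03. Across all genes, 20% of the 140 with the palindrome were lower beyond counting error and 15% of those without it. The palindrome contains the E-box CACGTG, for which the shares were 13.7% with and 15.3% without.

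**Figure D4:**
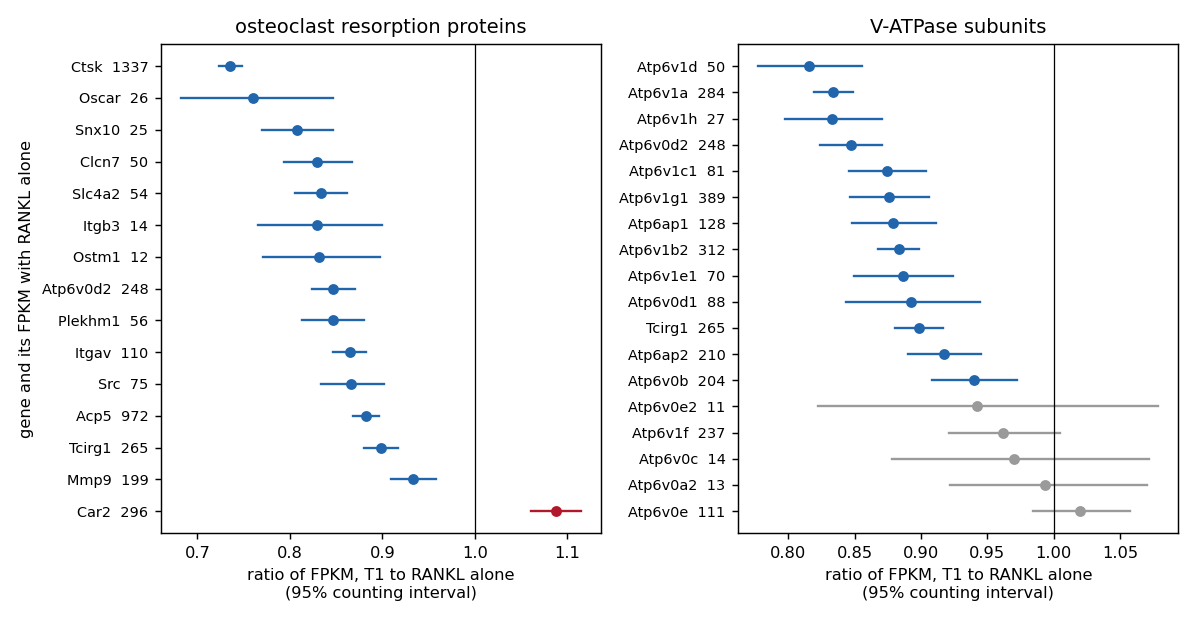
Ratio of FPKM in T1 to RANKL alone with 95% counting intervals for the 15 osteoclast resorption genes (left) and the 18 V-ATPase genes (right) past the filter, each name followed by its FPKM without TSH. In the left panel 14 genes lie below 1 and Car2 above it, and in the right panel 13 genes lie below 1 beyond counting error and 5 intervals include 1.

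Other lists of the digestive route also held more lower than higher genes. Among 33 lysosomal glycosidases, lipases and sulfatases 16 were lower beyond counting error (48.5%) and 0 higher, with a median of -0.11. Gla, encoding alpha-galactosidase, was at 16.4 FPKM without TSH, 13.02 in T1 and 17.3 in T2, so that the TSH libraries lay on opposite sides. Arsb, encoding a sulfatase of matrix glycans, was at 15.9, 12.9 and 12.6 FPKM, below RANKL alone in both. Of 9 cathepsins 5 were lower, with Ctsb at 271, 224 and 236 FPKM, and 1 was higher, Ctss, a macrophage protease gene, at 132, 144 and 133 FPKM. The lowest cathepsin was Ctsk at -0.44, which is also counted among the resorption proteins. The proton pump list shares members with the resorption proteins, Tcirg1 among them, so these lists are not separate counts. Of 21 SNAREs, the proteins that fuse vesicles, 7 were lower (33.3%, against 15% of all genes) and 1 higher, with Stx4a at -0.21 and Ykt6 at -0.18.

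Lists of iron handling, sterol synthesis and the tricarboxylic acid cycle also held more lower than higher genes. Of 20 iron handling genes 9 were lower beyond counting error (45%) and 1 higher, with a median of -0.10 in T1 and -0.02 in T2. The summed FPKM of the 30 listed iron genes was not lower, at 2369 without TSH, 2420 in T1 and 2430 in T2. Slc11a1, encoding the phagosomal metal transporter, was at 7.68 FPKM without TSH, 5.88 in T1 and 7.66 in T2, and Ncoa4, the ferritin receptor gene of autophagy, at 15.04, 12.3 and 12.7 FPKM. Only T1 was low for Slc11a1, while both TSH libraries were low for Ncoa4. Of 22 genes of cholesterol synthesis and uptake 12 were lower and 1 higher, with a median of -0.14 and Fdft1, the squalene synthase gene, at 10.3, 8.62 and 8.51 FPKM. Of 28 genes of the tricarboxylic acid cycle and pyruvate use 12 were lower and 1 higher, with a median of -0.05. Mpc2, encoding a subunit of the mitochondrial pyruvate carrier, was at 14.01, 11.6 and 12.1 FPKM, a ratio of 0.830 (0.773 to 0.891). Among other carbon routes, of 21 glycolysis and lactate genes 7 were lower and 3 higher, with a median of -0.02, and of 9 pentose phosphate genes 2 were higher and 0 lower, with a median of 0.06. Of 113 solute carriers 27 were lower (23.9%) and 3 higher, but their median was only -0.02.

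**Figure D5:**
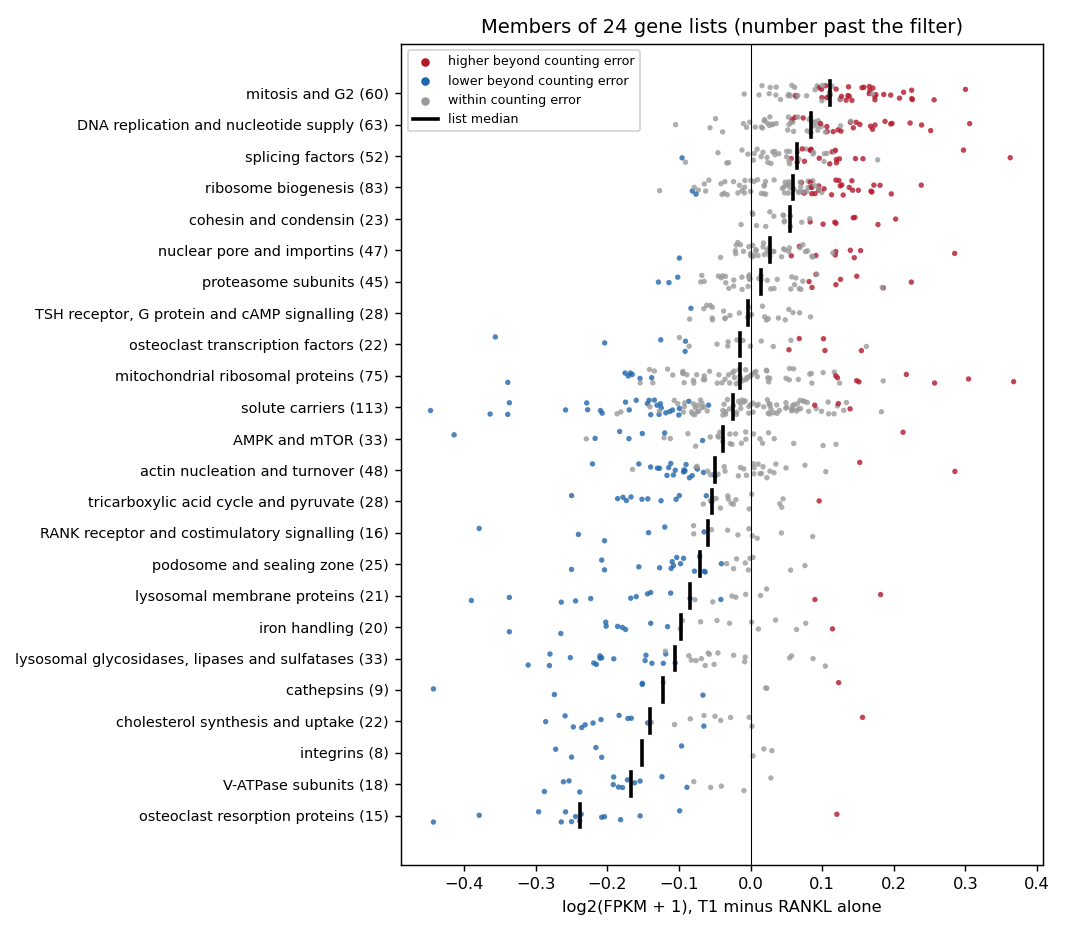
Change in log2(FPKM + 1), T1 minus RANKL alone, of every gene past the filter in 24 lists, 1 point per gene, coloured by counting error, with a bar at the list median and the number of genes in brackets. Medians run from -0.24 for the resorption proteins to 0.11 for mitosis and G2, and points of both colours lie in lists whose median is near 0.

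On the higher side, genes of cell division were higher almost without exception. Of 60 genes of mitosis and G2, 59 were higher and 33 of them beyond counting error (55%, against 12.5% of all genes), with a median of 0.11 in T1 and 0.13 in T2. Each difference was small: Melk, a mitotic kinase gene, was at 11.9 FPKM without TSH, 14.4 in T1 and 13.3 in T2, a ratio of 1.21 (1.08 to 1.35). Arhgap11a, a cytokinesis gene, was at 25.2, 29.6 and 29.2 FPKM, a ratio of 1.18 (1.11 to 1.24). Cdk1, the kinase gene that starts mitosis, was at 25.8, 29.4 and 29.3 FPKM, and Kif11, a spindle motor gene, at 24.97, 28.1 and 28.4 FPKM. Both TSH libraries lay above RANKL alone in all 4. Promoters of 3 of them are shown because the list shares a letter pattern, the cell cycle homology region core TTTGAA (capitals, both strands). They are the 200 bases before the start of Arhgap11a (chr2:113848662-113848861, minus strand), Cdk1 (chr10:69352913-69353112, minus strand) and Kif11 (chr19:37376182-37376381, plus strand).
Arhgap11a: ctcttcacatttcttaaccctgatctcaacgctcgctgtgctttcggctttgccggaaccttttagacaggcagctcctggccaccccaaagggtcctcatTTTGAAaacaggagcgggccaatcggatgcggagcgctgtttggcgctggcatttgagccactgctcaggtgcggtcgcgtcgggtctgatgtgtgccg
Cdk1: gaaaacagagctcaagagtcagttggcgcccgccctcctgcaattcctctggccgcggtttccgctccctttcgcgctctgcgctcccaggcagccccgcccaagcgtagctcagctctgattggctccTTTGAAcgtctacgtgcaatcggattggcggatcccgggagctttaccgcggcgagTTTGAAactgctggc
Kif11: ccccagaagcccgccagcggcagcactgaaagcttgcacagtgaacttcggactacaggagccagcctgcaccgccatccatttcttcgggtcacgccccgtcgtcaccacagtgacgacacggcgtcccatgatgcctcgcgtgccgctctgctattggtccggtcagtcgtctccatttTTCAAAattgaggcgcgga
The nearest match lies 99 bases before the start of Arhgap11a, 15 before that of Cdk1 and 19 before that of Kif11. It was found in 36 of 50 mitosis and G2 genes with a promoter in the table (72%), in 17.9% of all promoters and in 13.98% of those of the expressed genes. Across all genes, 16.4% of the 757 with the pattern were higher beyond counting error and 11.7% of those without it. The 757 include the 36 mitosis and G2 genes, so these shares are not a separate observation. A match describes these letters and is not evidence of a bound site.

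Chromosome copying and packing went the same way. Of 63 genes of DNA replication and nucleotide supply 56 were higher, 23 of them beyond counting error and 0 lower beyond it, with a median of 0.08. Tk1, encoding thymidine kinase, was at 22.5 FPKM without TSH, 26.4 in T1 and 26.5 in T2, and Mcm5, a helicase subunit gene, at 73.5, 84.4 and 79.0 FPKM. Of 23 cohesin and condensin genes, which hold and compact chromosomes, 22 were higher, 8 beyond counting error, led by Ncapd3 at 0.20. The E2F letters TTTCCCGC were in 8 of 50 replication genes with a promoter (16%), against 1.07% of all promoters and 2.88% of those of the expressed genes. Tubulin genes stood at a median of 0.11, but only 4 of 9 have no copy and those had a median of 0.01.

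Splicing and ribosome biogenesis genes were mostly higher in T1. Of 52 splicing factors 45 were higher, 18 of them beyond counting error (34.6%) and 1 lower beyond it, with a median of 0.07 in T1 and 0.02 in T2. The largest member, Snrpg, encoding a ring protein of spliceosomal particles, was at 52.96 FPKM without TSH, 68.4 in T1 and 55.4 in T2, and the sum over it and its 4 copies was 0.14 in log2. Gm8186, among the genes lower past 1.5-fold, is one of those copies, so the gene and its copy went opposite ways within a family that differed little. Of 83 ribosome biogenesis genes 63 were higher, 26 beyond counting error (31.3%) and 2 lower beyond it, with a median of 0.06. Utp18, of the particle that processes ribosomal RNA, was at 19.3, 22.2 and 21.1 FPKM, and Pes1, of the large subunit's assembly, at 71.3, 80.3 and 79.1 FPKM. Of 44 DEAD and DEAH box helicases 13 were higher (29.5%) and 3 lower beyond counting error, with a median of 0.04. Of 47 nuclear pore and importin genes 9 were higher (19.1%, against 12.5% of all genes) and 1 lower, with a median of 0.03. With both libraries set to the same total FPKM every change falls by up to 0.026 in log2, and the nuclear pore median was 0.002. The counts beyond counting error of single lists were not redone at that scaling. Of 38 genes of RNA polymerase II and Mediator, the machine that transcribes messages and its coactivator, 7 were higher (18.4%) and 5 lower (13.2%), with a median of 0.02 in T1 and -0.03 in T2. Of 79 cytosolic ribosomal protein genes 63 were higher beyond counting error, but 77 have a near-identical copy, so the list cannot be read without them.

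Ribosomal protein genes and a proteasome gene with copies differed in how far the single gene strayed from its family. Rps12 was at 344 FPKM without TSH, 264 in T1 and 351 in T2. Its change in T1 was -0.38 alone and -0.27 in log2 when summed over its copies, in the same direction. Psme2b, a proteasome activator gene, was at 38.3, 26.1 and 23.3 FPKM, while with its copy the sum was -0.08, within counting error. Rps27 was at 484, 402 and 604 FPKM, and summed over copies it was at 0.41, a family that also holds Rps27rt, at 269.7, 1040 and 415 FPKM. For these genes the level of the family, and not that of the gene, is what the files resolve.

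Most genes of the pathway that the TSH receptor uses had messages within counting error in T1. Of 28 genes of G protein and cyclic AMP signalling past the filter 1 was lower beyond counting error, Akap13 at 9.97 FPKM without TSH and 9.36 in T1, and 0 were higher, with a median of -0.003. Those are shares of 0% higher and 3.57% lower, against 12.5% and 15% of all genes. In T2, 2 of the 28 were higher and 5 lower. The shares of all genes beyond counting error in T2 are not given here, so T2 counts have no share beside them. Of 12 genes listed as targets of cyclic AMP and its factor CREB, 0 were higher and 2 lower in T1, Jun at -0.36 and Dusp4 at -0.15. Their median was 0.002. In T2, 1 of the 12 was higher and 6 were lower, again without a share of all genes to read them beside. The cyclic AMP response element TGACGTCA did not separate genes either: 12.6% of the 206 genes with it in their promoter were higher and 14.1% lower, against 12.3% and 15.1% without it. Of 33 genes of AMPK and mTOR, the energy and nutrient kinases, 7 were lower (21.2%) and 1 higher (3.03%) beyond counting error, with a median of -0.04. Sesn2, a stress-induced inhibitor of mTOR, was at 13.8, 10.1 and 12.7 FPKM, and the tumour suppressor Flcn and its partner Fnip1 stood at -0.18 and -0.22.

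Transcription factors as a class did not lean strongly. Of 338 genes that the deposited table assigns to a factor family, 51 were higher (15.1%) and 39 lower (11.5%) beyond counting error. The basic leucine zipper family, which holds AP-1 and the unfolded protein factors, went the other way, with 7 of 26 lower and 2 higher. Its lower members were Jun (-0.36), Mafk (-0.13), Fosl2 (-0.13), Nfe2l1 (-0.12), Atf6 (-0.12), Xbp1 (-0.12) and Atf4 (-0.10), and the higher ones Atf6b (0.10) and Jdp2 (0.05). The letters TGANTCA, a loose form of the AP-1 site with any base in the middle, were in the promoters of 293 genes. Of these 22.5% were lower, against 14.7% of those without the letters, and a match is not evidence of a bound site. In the HMG family 6 of 18 were higher, with Hmgb2, a chromatin protein gene of dividing cells, at 85.7 FPKM without TSH, 99.2 in T1 and 92.9 in T2. The homeobox gene Hmx3 had the most negative change of all 338, -0.37, at 13.6, 10.3 and 9.91 FPKM.

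Macrophage identity genes went both ways, with 2 higher and 3 lower beyond counting error of 7. Lyz2, the myeloid lysozyme gene, was at 194, 209 and 223 FPKM in RANKL alone, T1 and T2, and Csf1r, encoding the receptor for the macrophage growth factor, at 388, 371 and 369.7 FPKM. Markers of other cells were near 0. The 14 osteoblast and fibroblast markers summed to 0.373 FPKM without TSH and 0.447 in T1, with 7 listed at 0 reads, and the 12 lymphocyte markers to 1.78 and 1.61 FPKM. The 13 dendritic cell markers summed to 92.0 and 85.3 FPKM, nearly all of it from Cd74, at 89.7 and 83.4 FPKM. Common reference genes gave 1 of 11 higher and 3 lower beyond counting error.

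The libraries held 16156926 reads (RANKL alone), 16809034 (T1) and 17390744 (T2) in genes, of which the 6746 genes took 91.6% to 91.8%. A gene had a median of 1116.5 reads with RANKL alone and 1157.5 in T1, which gave a median half-width of the interval of 0.12 in log2, so a change below about 1.1-fold was not detectable in a typical gene. Of the 6746 genes 6606 reached 5 FPKM in both libraries, 70 only with RANKL alone, 63 only in T1 and 7 in neither. Just inside the filter lay Apoe, Cox7a1 and Clcn6, at means of 5.002, 5.003 and 5.004 FPKM, and just outside AW209491, Ccdc163 and Lrrk1, at 4.998, 4.997 and 4.996 FPKM. No difference has a replicate check.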

How the data were processed

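RNA levels were measured by sequencing in 3 libraries, 1 per group. Per the labels' protocols total RNA was made into libraries with a SMARTer mRNA kit, and GRCm38 and mm10, names of the same assembly, are the builds per the submitters' processing notes. Aligner, counting tool, strand setting and handling of reads with several positions were steps not given in the sources used here. Each value is an FPKM, as the authors deposited it, beside a gene length in bases, and 0 per-sample columns were left unused.

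Reads per gene were recovered from FPKM times gene length, which per library came out whole, to within 0.01 read, for 100% of values above 0. PCR copies are not independent molecules, so intervals cover counting error only. Ratios of FPKM carry exact conditional (Clopper-Pearson) 95% intervals, changes are log2(FPKM + 1), and the functions were tested on simulated data. There was no test and no p-value, since each group is 1 library.

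The genes, 86 gene lists and 10 motifs were chosen with earlier results of these data known. Named genes are the 15 higher and 15 lower whose interval bound nearest to 1 was farthest from it, without predicted names or copies, 5 each way with a copy, and up to 4 members of largest change per list described; other genes were named after their values were seen. A copy is another transcript in GENCODE M21 that BLAST+ 2.17.0 aligned with 95% identity or more, across no less than 100 bases and 50% of whichever transcript was shorter. Of the 6746 genes, 1490 had a copy and 2407 share exon bases with another gene. Promoters are from RefSeq, GRCm38.p6. Python 3.11.15, numpy 2.4.6, pandas 2.3.3, scipy 1.17.1 and matplotlib 3.10.9 were used.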

Additional observations from a re-analysis of the deposited data

Results flagged for a closer look

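Rps27, encoding a protein of the small ribosomal subunit, stood apart because the TSH libraries lay on opposite sides of RANKL alone, each beyond counting error. Its log2 change was -0.27 in T1 and 0.32 in T2, from levels of 484 FPKM without TSH, 402 in T1 and 604 in T2. Both changes use the same RANKL-alone library, and the difference between them was not tested. Near-identical copies of Rps27 exist, and the gene summed with them stood at 0.41 in T1.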

How the results depend on the processing

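With 1 library per group no replicate could be left out, and no paired analysis was possible because each group has 1 library. The 10 genes higher and 4 lower past 1.5-fold became 20 and 11 with a mean of at least 1 FPKM, 6 and 2 at 20 FPKM, 27 and 18 with no filter, 0 and 2 without near-identical copies, and 38 and 72 where a fold of 5 to 4 was enough. The 842 genes higher beyond counting error became 471 at 20 FPKM, 541 with both libraries at the same total FPKM, 533 without copies and 471 with a 99% interval, and the 1015 lower became 524 at 20 FPKM. Fewer genes are tested under the higher filter and without copies. Of 788 alternatives run on 79 list medians, 775 moved by less than the median half-width of their genes' intervals, 11 moved by more and 2 turned. That half-width belongs to single genes and is wider than many list medians, so 775 does not measure stability. The nuclear pore median is counted there although it went from 0.03 to 0.002. A turn was counted only for the 31 lists with a median of at least 0.05 in size. Medians nearer to 0 could change sign uncounted. That of the brakes on osteoclast differentiation went from 0.004 to -0.052 at 20 FPKM. The 2 counted as turned did so at 20 FPKM: Toll-like receptor adaptors and kinases, to 0.011 from 6 genes, and metallothioneins and zinc transporters, to 0.049 from 3 genes. Of the 40 ranked genes, summing over copies turned Rpl17 to 0.16 and Rps27 to 0.41 and left Psme2b at -0.08, within counting error. Genes with few reads, such as Mt2 with 46 in T1, are the ones that depth limits most.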
